A study of Oryza sativa with 8 samples.

Results

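The light-harvesting antenna of photosystem II was followed through 8 of its nuclear genes in rice (Oryza sativa) leaves. The 8 genes were taken by identifier from tables of 40718 genes (6 libraries) and 38977 genes (2 libraries), and all 8 were found in both. They are CAB1R (Os09g0346500), CAB2R (Os01g0600900), LHCB1.3 (Os01g0720500), LHCB2 (Os03g0592500) and LHCB3 (Os07g0562700) of the major antenna, and LHCB4 (Os07g0558400), LHCB5 (Os11g0242800) and LHCB6 (Os04g0457000) of the minor antenna.

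Each of the 8 groups was a single library of leaf RNA from seedlings first grown for 2 weeks in test tubes on solid Murashige and Skoog medium at 26 °C with 13 h of light and 11 h of dark. The glk1glk2 double mutant, the dgp1 mutant and their wild type DJ were each sampled on low phosphate (LP, 10 µM KH2PO4, leaves taken after 6 days) and as untreated control (CK). A second wild type, ZH11, was sampled after 24 h without phosphate (NP) and as control. The alleles, the number of mutant lines and the number of plants in a library are not given in the sources used here. The sample records used here list no harvest day or phosphate dose for the controls, and no hour of the day for any library. Whether treated and control leaves were matched in age and hour is thus not known. GLK1 and GLK2 are transcription factors that switch on chlorophyll and photosynthesis genes, antenna genes among them, and the DGP1 protein represses them.

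Chlorophyll a/b-binding proteins of the major antenna assemble into trimers that carry much of the leaf's chlorophyll b, and they are built from proteins of the LHCB1, LHCB2 and LHCB3 types. The minor antenna proteins are single subunits that sit between those trimers and the reaction centre core and pass excitation energy inward. The genes are nuclear, their products are imported into the chloroplast, and their transcripts rank among the most abundant of a green leaf. CAB1R, CAB2R and LHCB1.3 encode LHCB1-type proteins. LHCB2 proteins are phosphorylated when the antenna is redistributed between photosystems, as described in Arabidopsis. LHCB3 occurs in trimers bound next to the minor antenna. LHCB4 encodes CP29, LHCB5 encodes CP26 and LHCB6 encodes CP24, which links outer trimers to the core.

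In the coordinates of the deposited tables, whose genome build is not given in the sources used here, CAB1R lies on chromosome 9 at 10845779 to 10847012, plus strand. CAB2R and LHCB1.3 both lie on chromosome 1, plus strand, at 23607363 to 23608541 and 30030998 to 30032054. LHCB2 lies on chromosome 3 at 22000043 to 22001240, plus strand, and LHCB5 on chromosome 11 at 7659701 to 7662180, plus strand. LHCB3 (22487434 to 22488617, plus strand) and LHCB4 (22316343 to 22317935, minus strand) share chromosome 7, and LHCB6 lies on chromosome 4 at 22835913 to 22837163, minus strand. The gene length used for normalization equals the genomic span in the 3 LHCB1-type genes (1234, 1179 and 1057 bases for CAB1R, CAB2R and LHCB1.3). In the others the span exceeds the gene length by 89 bases (LHCB2), 152 (LHCB3), 372 (LHCB4), 1295 (LHCB5) and 110 (LHCB6). The ZH11 table names Os01g0720500 Lhcb1.1. The LHCB1-type genes are close copies, and how reads that fit several of them were counted is not given, so the split of reads among CAB1R, CAB2R and LHCB1.3 is uncertain throughout.

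Levels are in FPKM (fragments per kilobase of gene length, scaled to library size by the authors), so they can be compared between genes. Between 12525772 and 16566008 reads on genes lay behind each library, but in 5 libraries low read numbers per gene piled up at a peak. That peak stood at 147 and 183 reads in glk1glk2_LP and glk1glk2_CK, 22 in dgp1_CK, and 6 and 49 in DJ_LP and DJ_CK, and reads were divided by it to estimate distinct cDNA fragments. Libraries dgp1_LP, ZH11_NP and ZH11_CK had no peak, so that each read counted as 1 fragment, an upper limit. Estimated fragments thus ran from 78184 in glk1glk2_CK to 16059486 in ZH11_NP. Ratios carry exact 95% intervals over these fragments, which cover counting error only. With 1 library per group there is no spread between replicates and no test. A gene counts as higher or lower where it differed at least 2-fold, on log2 of FPKM + 1, and reached 5 FPKM in 1 of the 2 libraries. As a check of labels, the 7 leaf marker genes summed to between 2554 FPKM (glk1glk2_LP) and 32495 FPKM (DJ_CK), with RBCS5 at 0 in both glk1glk2 libraries. The 4 root markers summed to between 12.2 and 69.8 FPKM, with LSI2 at 0 in all 8 libraries. GLK1 stood at 49.3 and 40.9 FPKM in glk1glk2_LP and glk1glk2_CK, 89.2 and 273 FPKM in dgp1_LP and dgp1_CK, and 130 and 179 FPKM in DJ_LP and DJ_CK. GLK2 stood at 53.0 and 32.2 FPKM in glk1glk2_LP and glk1glk2_CK, 106 and 83.4 FPKM in dgp1_LP and dgp1_CK, and 86.9 and 96.2 FPKM in DJ_LP and DJ_CK. Both regulators thus had lower values in the double mutant than in DJ in each condition, though neither was at 0. GLK2 on low phosphate fell short of 2-fold, with a log2 ratio of -0.70 in glk1glk2_LP over DJ_LP. A 1-kb gene with 3 fragments stands at 27.3 FPKM in glk1glk2_LP and 30.7 FPKM in glk1glk2_CK. The mutant values of both regulators lie not far above this floor, and no counting interval was computed for them.

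The 8 antenna genes together held 0.791% and 0.934% of the reads in glk1glk2_LP and glk1glk2_CK, 6.27% and 3.46% in dgp1_LP and dgp1_CK, 1.44% and 1.86% in DJ_LP and DJ_CK, and 3.90% and 4.84% in ZH11_NP and ZH11_CK. Their summed level was 5255 and 6385 FPKM in glk1glk2_LP and glk1glk2_CK, 62994 and 37374 FPKM in dgp1_LP and dgp1_CK, 9828 and 16738 FPKM in DJ_LP and DJ_CK, and 31130 and 40664 FPKM in ZH11_NP and ZH11_CK. Within the 6-library table the sum was thus lowest in both glk1glk2 libraries and highest in both dgp1 libraries, and low phosphate went with a higher sum in dgp1 and a lower one in DJ. The members did not move alike in dgp1. LHCB1.3 was 258-fold and CAB2R 5.30-fold higher in dgp1_LP than in dgp1_CK, CAB1R 1.08-fold higher and LHCB6 69.6-fold lower. A read peak is absent in dgp1_LP and present in dgp1_CK, and its part in the sums was not tested. These are bulk leaf samples, in which fewer green cells and less antenna RNA per cell cannot be told apart.

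Among the major genes, CAB1R was the most abundant member in every library except dgp1_LP. It stood at 2084 and 2662 FPKM in glk1glk2_LP and glk1glk2_CK, 12930 and 11994 FPKM in dgp1_LP and dgp1_CK, 4342 and 4351 FPKM in DJ_LP and DJ_CK, and 9628 and 11421 FPKM in ZH11_NP and ZH11_CK. Within each genotype the treated and control values stayed close, and the DJ pair did not differ beyond counting error. CAB1R ranked first of all genes in both ZH11 libraries, and ranked 5 and 17 in DJ_LP and DJ_CK.

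CAB2R varied far more than CAB1R, at 213 and 215 FPKM in glk1glk2_LP and glk1glk2_CK, 14755 and 2782 FPKM in dgp1_LP and dgp1_CK, 655 and 1414 FPKM in DJ_LP and DJ_CK, and 7483 and 10699 FPKM in ZH11_NP and ZH11_CK. It was the top gene of the whole library in dgp1_LP and ranked 404 in glk1glk2_LP. The LHCB1.3 gene had 15.4 and 25.3 FPKM in glk1glk2_LP and glk1glk2_CK, 4991 and 19.4 FPKM in dgp1_LP and dgp1_CK, 6.83 and 63.6 FPKM in DJ_LP and DJ_CK, and 654 and 1328 FPKM in ZH11_NP and ZH11_CK. It was at most 63.6 FPKM in 5 libraries and at least 654 FPKM in the other three, dgp1_LP, ZH11_NP and ZH11_CK. Only 1.79 and 2.61 fragments stood behind its glk1glk2_LP and glk1glk2_CK values, under the floor of 3 fragments, so these libraries cannot be ordered for it.

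LHCB2 followed CAB1R, at 1190 and 1458 FPKM in glk1glk2_LP and glk1glk2_CK, 12401 and 8375 FPKM in dgp1_LP and dgp1_CK, 2774 and 3269 FPKM in DJ_LP and DJ_CK, and 5386 and 7346 FPKM in ZH11_NP and ZH11_CK. LHCB3 was less abundant and spanned the narrowest range of the 8 genes, at 752 and 861 FPKM in glk1glk2_LP and glk1glk2_CK, 2996 and 1499 FPKM in dgp1_LP and dgp1_CK, 504 and 919 FPKM in DJ_LP and DJ_CK, and 2085 and 2083 FPKM in ZH11_NP and ZH11_CK. For LHCB3 the lowest library was DJ_LP, not a glk1glk2 library as for CAB1R, CAB2R and LHCB2.

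Of the minor genes, LHCB4 stood at 352 and 436 FPKM in glk1glk2_LP and glk1glk2_CK, 7452 and 4712 FPKM in dgp1_LP and dgp1_CK, 812 and 2830 FPKM in DJ_LP and DJ_CK, and 2678 and 3565 FPKM in ZH11_NP and ZH11_CK. LHCB5 stood at 595 and 696 FPKM in glk1glk2_LP and glk1glk2_CK, 7458 and 7321 FPKM in dgp1_LP and dgp1_CK, 732 and 3262 FPKM in DJ_LP and DJ_CK, and 2863 and 3652 FPKM in ZH11_NP and ZH11_CK. Both genes had the same order of groups in the 6-library table, dgp1 above DJ above glk1glk2 within each condition, though for LHCB5 the low-phosphate glk1glk2 and DJ values did not differ beyond counting error. LHCB6 did not follow it, at 54.0 and 30.7 FPKM in glk1glk2_LP and glk1glk2_CK, 9.65 and 672 FPKM in dgp1_LP and dgp1_CK, 2.00 and 629 FPKM in DJ_LP and DJ_CK, and 352 and 570 FPKM in ZH11_NP and ZH11_CK. LHCB6 was the least abundant minor gene in every library, and its 2 lowest values were those of DJ_LP and dgp1_LP. Its glk1glk2_LP and glk1glk2_CK values rest on 6.78 and 3.43 fragments, and its DJ_LP value on 7.83.

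**Figure D1:**
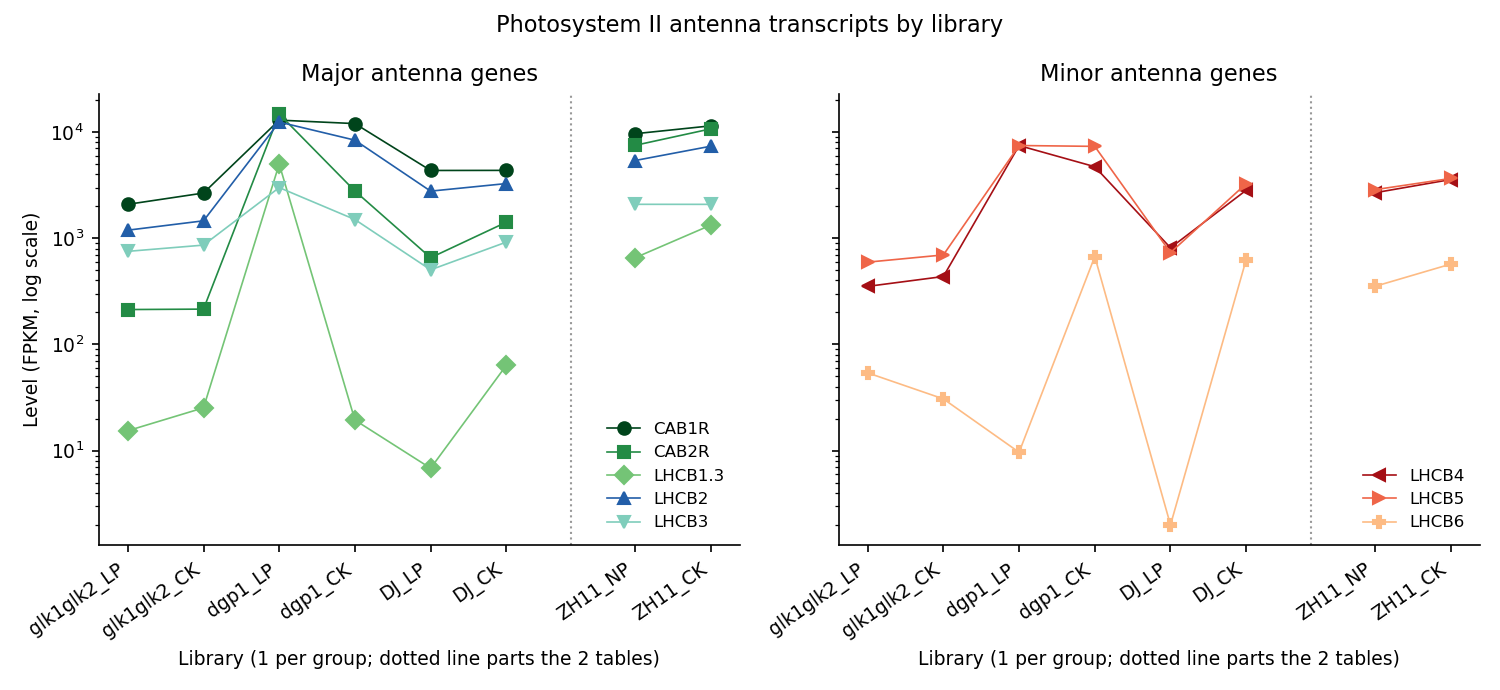
Level of each antenna gene in FPKM (log axis) in the 8 libraries, 1 point per library, with major genes on the left and minor genes on the right. The dotted line parts the 2 tables, and lines join points of 1 gene within a table only to guide the eye. LHCB1.3 reaches 4991 FPKM in dgp1_LP and lies at 6.83 FPKM in DJ_LP, and LHCB6 lies at 9.65 and 2.00 FPKM in those same libraries.

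Across the 6 libraries of 1 table, pairs of members differed in how closely they moved together, as Pearson's r of log2(FPKM + 1). CAB1R and LHCB2 had r = 0.99, LHCB4 and LHCB5 had r = 0.98, and LHCB6 had between -0.14 (with LHCB1.3) and 0.44 (with LHCB5). These are descriptions over 6 single libraries that share genotypes, controls and unequal fragment numbers.

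The minor genes made up 19.0% and 18.2% of the summed antenna FPKM in glk1glk2_LP and glk1glk2_CK, 23.7% and 34.0% in dgp1_LP and dgp1_CK, 15.7% and 40.2% in DJ_LP and DJ_CK, and 18.9% and 19.1% in ZH11_NP and ZH11_CK. DJ_CK had the highest minor share and DJ_LP the lowest, whereas the glk1glk2 pair and the ZH11 pair each stayed near 19%. CAB1R alone made up 44.2% of the DJ_LP antenna, against 26.0% in DJ_CK, and 20.5% in dgp1_LP, against 32.1% in dgp1_CK. LHCB3 took 14.3% and 13.5% in glk1glk2_LP and glk1glk2_CK and at most 6.70% in the other six.

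**Figure D2:**
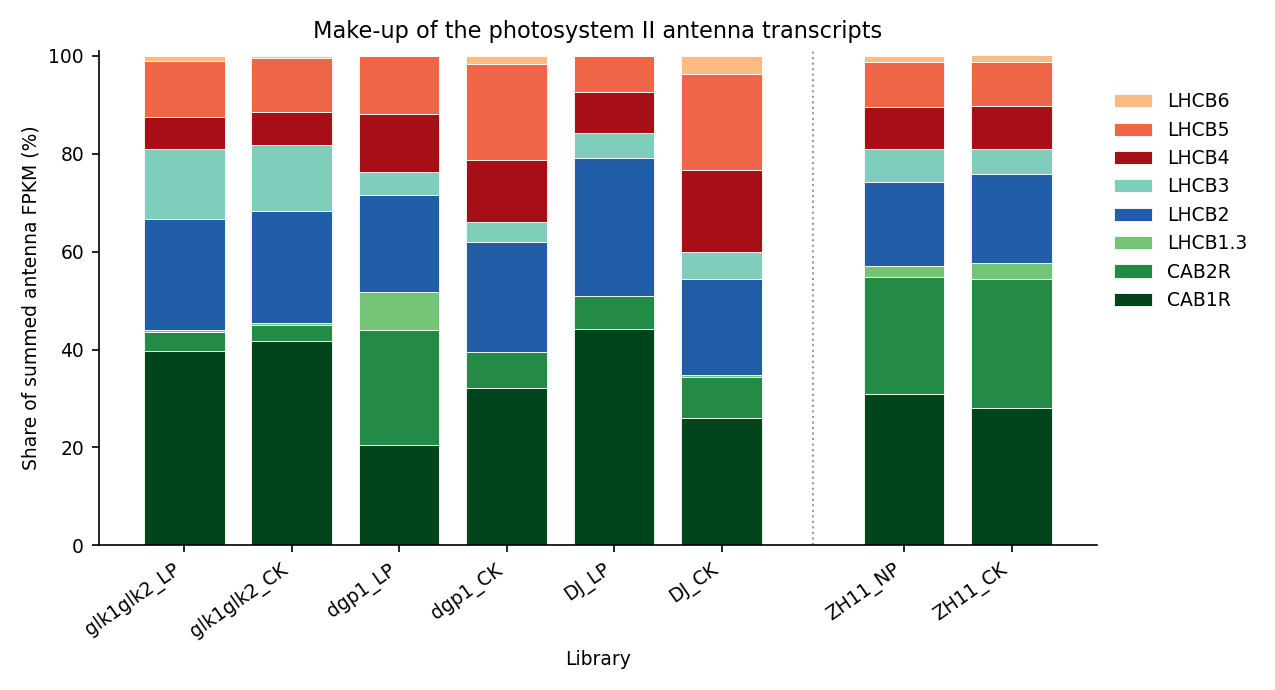
Share of each gene in the summed FPKM of the 8 antenna genes, in percent, 1 bar per library, with the 3 minor genes at the top of each bar. The minor genes take 15.7% in DJ_LP against 40.2% in DJ_CK, and CAB2R takes 23.4% in dgp1_LP against 7.44% in dgp1_CK.

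Ratios of members within a library need no scaling between libraries. CAB2R over CAB1R was 0.102 and 0.0808 in glk1glk2_LP and glk1glk2_CK, 1.14 and 0.232 in dgp1_LP and dgp1_CK, 0.151 and 0.325 in DJ_LP and DJ_CK, and 0.777 and 0.937 in ZH11_NP and ZH11_CK. LHCB1.3 over CAB1R was 0.00739 and 0.00949 in glk1glk2_LP and glk1glk2_CK, 0.386 and 0.00161 in dgp1_LP and dgp1_CK, 0.00157 and 0.0146 in DJ_LP and DJ_CK, and 0.0679 and 0.116 in ZH11_NP and ZH11_CK. Both ratios were highest in dgp1_LP, ZH11_NP and ZH11_CK, which are the 3 libraries with no read peak, and lower in all 5 libraries with a peak. The part of the read peak in these ratios was not tested. LHCB2 over CAB1R kept to a narrower range, from 0.548 (glk1glk2_CK) to 0.959 (dgp1_LP). LHCB5 over LHCB4 ran from 0.901 in DJ_LP to 1.69 in glk1glk2_LP. LHCB6 over LHCB4 was 0.153 and 0.0704 in glk1glk2_LP and glk1glk2_CK, 0.00129 and 0.143 in dgp1_LP and dgp1_CK, 0.00246 and 0.222 in DJ_LP and DJ_CK, and 0.131 and 0.160 in ZH11_NP and ZH11_CK. The low-phosphate libraries of dgp1 and DJ lay below all the others in that ratio.

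**Figure D3:**
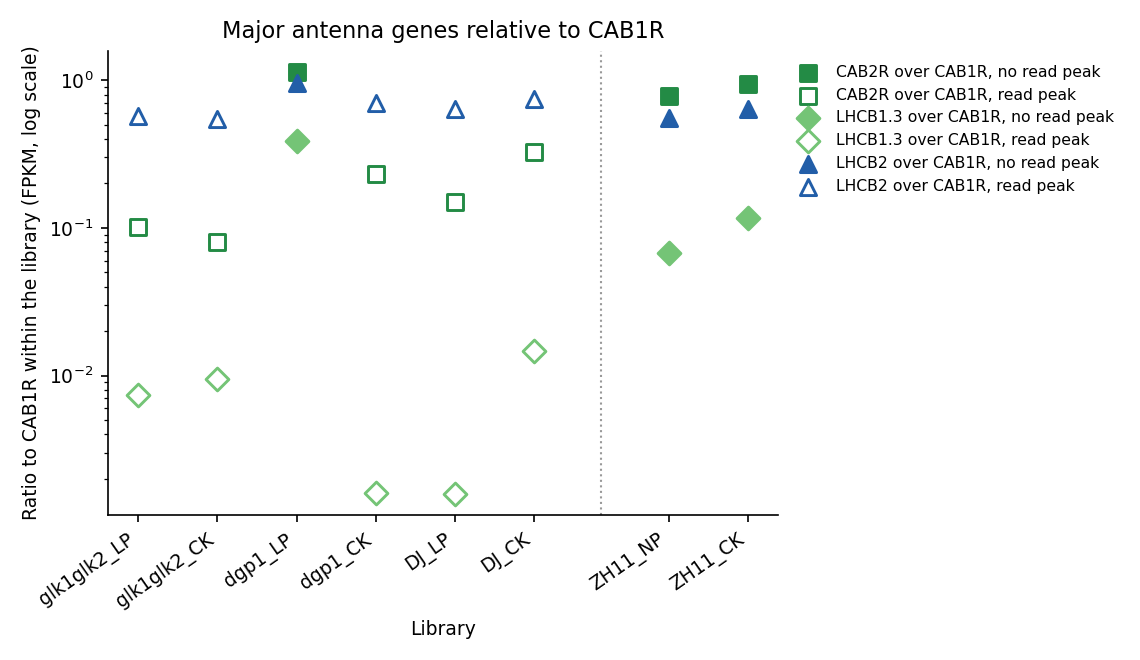
Ratio of CAB2R, LHCB1.3 and LHCB2 to CAB1R within each library (log axis). Filled symbols are libraries with no read peak and open symbols libraries with one. CAB2R over CAB1R lies between 0.777 and 1.14 in the filled libraries and between 0.0808 and 0.325 in the open ones.

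Low phosphate in DJ went with lower minor antenna transcripts and a nearly even level of the leading major ones. All 3 minor genes were lower in DJ_LP than in DJ_CK, LHCB4 3.48-fold (3.24 to 3.75), LHCB5 4.46-fold (4.15 to 4.79) and LHCB6 315-fold (156 to 749). Of the 5 major genes, LHCB1.3 was 9.31-fold lower (4.77 to 17.8) and CAB2R 2.16-fold lower (1.95 to 2.39). LHCB3 was 1.82-fold lower (1.59 to 2.08) and LHCB2 1.18-fold lower (1.10 to 1.26), short of 2-fold, and CAB1R had a ratio of 0.998 (0.946 to 1.05). In all, 5 of the 8 members were lower and 0 higher, where 24.3% of 15357 genes were lower and 23.1% higher. The median log2 ratio was -1.45 over the members and -0.05 over all genes. It was -2.15 for the minor and -0.87 for the major genes, a difference of -1.29. Scaled to each library's own read total, a log2 shift of 0.40 before the pseudocount, CAB2R at -0.71 no longer reached 2-fold, and CAB1R (0.40) and LHCB2 (0.16) were higher, not lower, in DJ_LP. The 7 leaf markers summed to 8309 FPKM in DJ_LP, against 32495 FPKM in DJ_CK, and the 4 root markers to 25.1 FPKM in DJ_LP, against 69.8 FPKM in DJ_CK; their part in the antenna values was not tested. A large-subunit ribosomal RNA gene with a profile close to that of LHCB6 stood at 1.00 FPKM in DJ_LP, against 229 FPKM in DJ_CK, and at 2.18 FPKM in dgp1_LP, against 261 FPKM in dgp1_CK. In glk1glk2_LP and glk1glk2_CK it stood at 12.6 and 16.3 FPKM. This gene was picked for its likeness to LHCB6 over these libraries, so its low values alongside LHCB6 follow from that choice. Its part in the LHCB6 values was not tested.

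In dgp1, low phosphate went with higher CAB2R and LHCB1.3 and lower LHCB6. CAB2R was 5.30-fold higher in dgp1_LP than in dgp1_CK (5.07 to 5.55) and LHCB1.3 258-fold higher (146 to 506), while CAB1R differed 1.08-fold (1.05 to 1.10). LHCB3 was 2.00-fold higher (1.87 to 2.14), just short of the threshold on the FPKM + 1 scale and past it at 1.12 with own read totals. LHCB2 was 1.48-fold and LHCB4 1.58-fold higher, and LHCB5 had a ratio of 1.02 (0.990 to 1.05). LHCB6 was 69.6-fold lower (57.7 to 84.4), with 149 reads in dgp1_LP. Counted together, 2 members were higher and 1 lower, where 24.0% of 15600 genes were higher and 20.7% lower, which is close to the share among all genes. With CAB1R and CAB2R summed into 1 gene, 1 member was higher, LHCB1.3. The members' median was 0.61, against 0.03 over all genes, with 1.00 for the major and 0.03 for the minor genes. The difference of -0.97 between minor and major was -0.65 without LHCB6. CAB2R and LHCB1.3 are among the genes whose ratio to CAB1R was high in the libraries with no read peak, and dgp1_LP is such a library while dgp1_CK is not. The leaf markers summed to 18558 FPKM in dgp1_LP, against 29044 FPKM in dgp1_CK, the other direction from the antenna sum. Singly they were mixed. RCA stood at 4887 FPKM in dgp1_LP, against 16376 FPKM in dgp1_CK, and RBCS2 and GLO1 were lower too. RBCS3, RBCS4, RBCS5 and PRK were higher in dgp1_LP, the same direction as the antenna sum.

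In glk1glk2, no antenna gene differed 2-fold between glk1glk2_LP and glk1glk2_CK. None of the 8 was higher or lower, where 23.3% of 15007 genes were higher and 23.1% lower. That share takes in genes from 5 FPKM, while 3 fragments of a 1-kb gene stand at 27.3 FPKM in glk1glk2_LP and 30.7 FPKM in glk1glk2_CK. Many genes behind the share can thus rest on under 3 fragments, unlike the abundant antenna genes, so the 2 are not on equal footing. CAB1R was 1.28-fold lower (1.09 to 1.50), the only member whose interval left out a ratio of 1. CAB2R had a ratio of 0.992 (0.556 to 1.78), LHCB4 0.808 (0.533 to 1.22) and LHCB5 0.854 (0.617 to 1.18), so that a 2-fold difference lay outside the interval of each. LHCB6 had a ratio of 1.76 (0.418 to 9.38), which leaves a 2-fold difference in either direction within counting error. No fold is given for LHCB1.3. The median log2 ratio was -0.26 over the 8 members and -0.02 over all genes, and minor minus major was 0.07.

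Under control conditions, dgp1 held more transcript of the abundant antenna genes than DJ. CAB1R was 2.76-fold higher in dgp1_CK (2.61 to 2.92), LHCB2 2.56-fold (2.39 to 2.75) and LHCB5 2.24-fold (2.10 to 2.40). CAB2R (1.97-fold, 1.77 to 2.19), LHCB4 (1.67-fold, 1.55 to 1.79) and LHCB3 (1.63-fold, 1.42 to 1.88) had higher values short of 2-fold. LHCB1.3 was 3.28-fold lower (1.48 to 7.57), on 11.6 fragments in dgp1_CK and 17.9 in DJ_CK, and LHCB6 had a ratio of 1.07 (0.898 to 1.27). Thus 3 members were higher and 1 lower, where 16.1% of 14557 genes were higher and 14.1% lower. The members' median was 0.86, against 0.03 for all genes, and minor minus major was -0.24, or -0.02 without LHCB6. With own read totals, a shift of -0.27 before the pseudocount, LHCB5 at 0.90 fell short of 2-fold and LHCB6 turned to -0.18.

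The glk1glk2 mutant under control conditions had less transcript of most antenna genes than DJ. The median ratio of the minor genes lay further from DJ than that of the major ones, though CAB2R, a major gene, was further from DJ than LHCB4 and LHCB5. LHCB6 was 20.5-fold lower in glk1glk2_CK (7.36 to 87.5), LHCB4 6.49-fold (4.91 to 8.75) and LHCB5 4.69-fold (3.73 to 5.95). Among major genes, CAB2R was 6.58-fold lower (4.39 to 10.3) and LHCB2 2.24-fold (1.89 to 2.67), while CAB1R was 1.63-fold lower (1.45 to 1.85), short of 2-fold. LHCB1.3 passed the threshold at 2.52-fold lower, but on 2.61 fragments its interval (0.689 to 15.6) included no difference. LHCB3 had a ratio of 0.937 (0.726 to 1.20), with a log2 value of -0.09 that became 0.31 with own read totals. In all, 6 members were lower and 0 higher, where 31.3% of 15533 genes were lower and 27.4% higher. The median was -1.76 over the members and -0.08 over all genes, with -2.69 for the minor and -1.16 for the major genes. Own read totals, a shift of 0.41 before the pseudocount, take LHCB2 (-0.76) and LHCB1.3 (-0.91) below 2-fold. The leaf markers summed to 2807 FPKM in glk1glk2_CK, against 32495 FPKM in DJ_CK; their part in the antenna values was not tested.

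On low phosphate every antenna gene was higher in dgp1 than in DJ. The largest differences were in LHCB1.3 (731-fold, 494 to 1131) and CAB2R (22.5-fold, 21.7 to 23.4), and the smallest in CAB1R (2.98-fold, 2.93 to 3.02). The ratios of CAB2R and LHCB1.3 to CAB1R were high in the libraries with no read peak. Of this pair, dgp1_LP is such a library and DJ_LP is not. The part of the read peak in these folds was not tested. LHCB5 was 10.2-fold higher in dgp1_LP (9.82 to 10.6), LHCB4 9.17-fold (8.87 to 9.49), LHCB3 5.94-fold (5.67 to 6.24) and LHCB2 4.47-fold (4.38 to 4.56). LHCB6 was 4.83-fold higher (2.37 to 11.5), between 2 low levels, 9.65 FPKM in dgp1_LP and 2.00 FPKM in DJ_LP. All 8 members were thus higher, where 20.9% of 14814 genes were higher and 13.4% lower. The median was 2.88 over the members, against 0.08 over all genes, with 3.20 for the minor and 2.57 for the major genes. All 8 stayed past 2-fold with own read totals, a shift of -0.55 before the pseudocount that leaves a median of 2.34. With a minimum of 10 FPKM, which LHCB6 does not reach, 7 were called. The leaf markers summed to 18558 FPKM in dgp1_LP, against 8309 FPKM in DJ_LP, the same direction as the antenna; their part was not tested. The DJ_LP library enters this comparison and the DJ response alike, so the low DJ_LP values of LHCB4, LHCB5 and LHCB6 weigh on both.

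On low phosphate, glk1glk2 differed from DJ in opposite directions among the members. CAB2R was 3.07-fold lower in glk1glk2_LP than in DJ_LP (2.11 to 4.64), LHCB2 2.33-fold (1.98 to 2.77), LHCB4 2.31-fold (1.73 to 3.14) and CAB1R 2.08-fold (1.85 to 2.35). LHCB6 was 27.1-fold higher (8.19 to 86.9), with 6.78 fragments in glk1glk2_LP and 7.83 in DJ_LP. LHCB1.3 was 2.26-fold higher with an interval of 0.216 to 9.62 that included no difference. LHCB3 had a ratio of 1.49 (1.19 to 1.85) and LHCB5 a ratio of 0.812 (0.640 to 1.02). So 4 members were lower and 2 higher, where 26.0% of 15352 genes were lower and 23.5% higher. The median was -0.68 over the members and -0.02 over all genes. Minor minus major was 0.76, with -0.30 for the minor and -1.06 for the major genes, the other sign from the control condition (-1.53). With CAB1R and CAB2R summed into 1 gene the difference was -0.03, and without LHCB6 it was 0.31. For low phosphate over control, minor minus major was -1.29 in DJ and 0.07 in glk1glk2. The DJ_LP library enters this comparison and the DJ response alike, so its low minor values weigh on both.

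In ZH11, 24 h without phosphate went with small shifts. LHCB1.3 was 2.03-fold lower in ZH11_NP than in ZH11_CK (1.99 to 2.08), LHCB6 1.62-fold lower (1.57 to 1.67), CAB2R 1.43-fold, LHCB2 1.36-fold, LHCB4 1.33-fold, LHCB5 1.28-fold and CAB1R 1.19-fold lower. LHCB3 had a ratio of 1.00 (0.986 to 1.02). Only LHCB1.3 passed 2-fold, which makes 1 member lower and 0 higher, where 3.19% of 15002 genes were lower and 1.61% higher. With own read totals LHCB1.3 stood at -0.95 and no member passed. The median was -0.43 over the members and -0.03 over all genes, and minor minus major was 0.04. The ZH11 libraries come from another table, cultivar, dose and time, so no ratio to the DJ libraries is given.

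**Figure D4:**
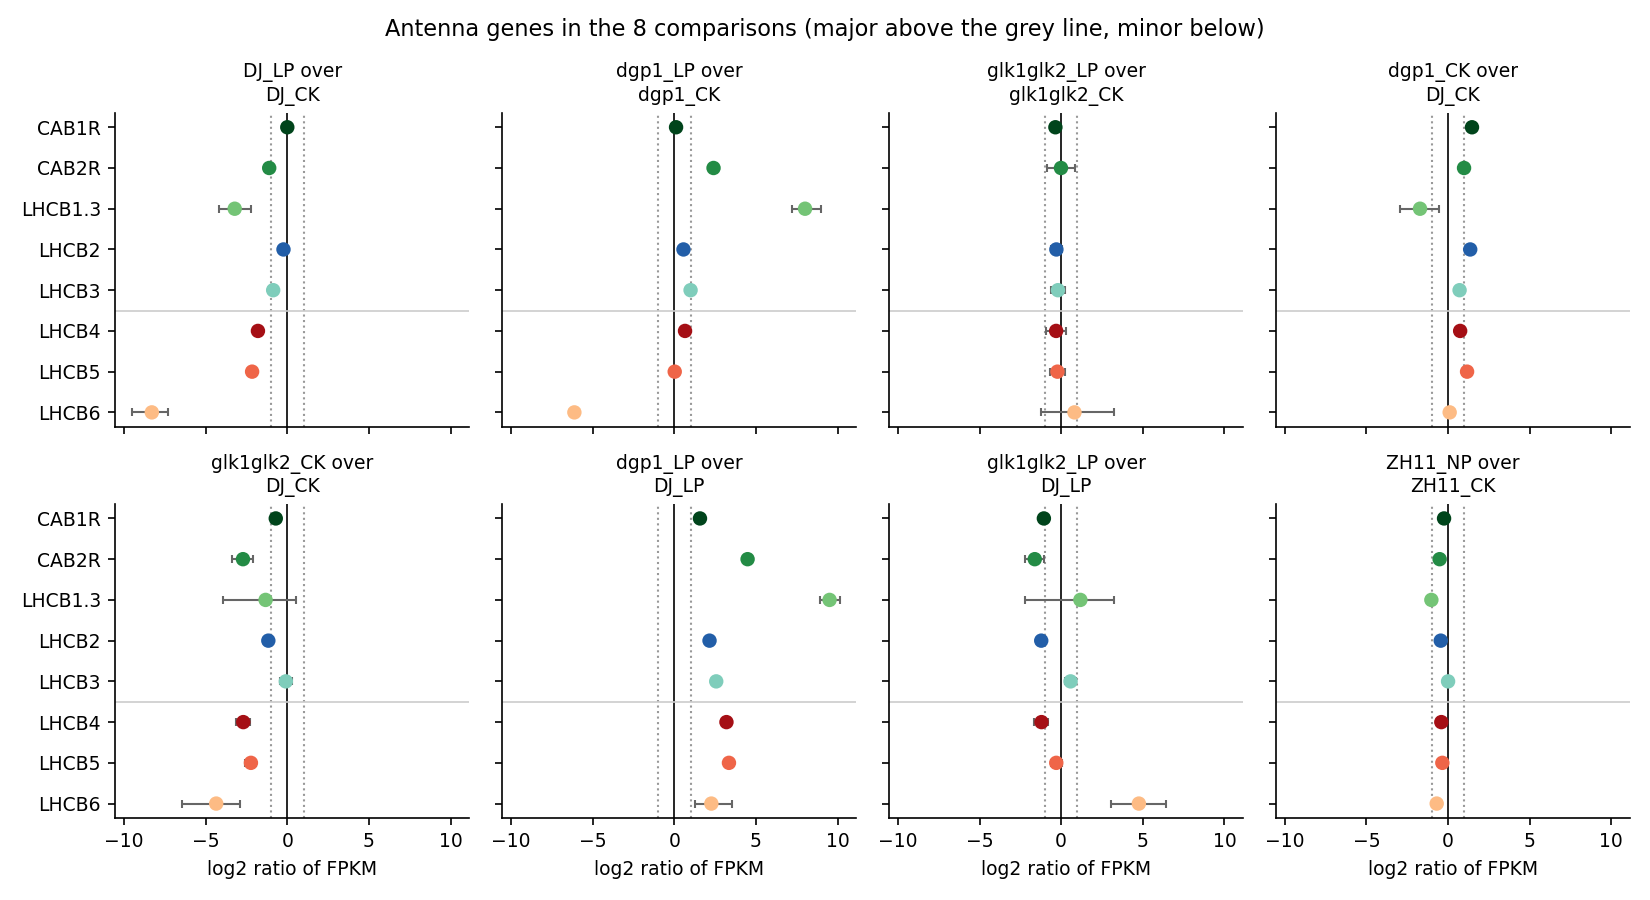
Ratio of FPKM on a log2 scale, without a pseudocount, for each antenna gene in the 8 comparisons, with 95% counting intervals over estimated fragments as bars. Dotted lines mark 2-fold, and no point is drawn for LHCB1.3 in glk1glk2 because both libraries held under 3 fragments of it. All 8 genes lie right of the 2-fold line in dgp1_LP over DJ_LP, and LHCB6 lies farthest left in DJ_LP over DJ_CK, at 315-fold lower.

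LHCB6 differs from the other members in its place in the annotation. Of its span, 77.5% lies under Os04g0457100 (chromosome 4, 22836195 to 22837571, plus strand), a gene on the opposite strand, while no other member is overlapped on the opposite strand. The library kit marks strand, but whether the counting used it is not given in the sources used here. The partner gene was listed at 0 in all libraries except dgp1_LP, where it stood at 0.215 FPKM. This overlap was examined after the LHCB6 values were seen, so all genes with at least 50% of their span overlapped were set beside genes with none. Between DJ_LP and DJ_CK, 40.5% of 824 overlapped genes and 23.1% of 13492 others were lower. Between dgp1_LP and dgp1_CK it was 33.5% of 803 and 20.0% of 13705, and between glk1glk2_CK and DJ_CK 45.5% of 916 and 30.5% of 13515. Between glk1glk2_LP and glk1glk2_CK it was 26.2% of 799 and 23.0% of 13136, and in ZH11 3.55% of 789 and 3.27% of 12792. The share lower was thus above that of genes with no overlap in each comparison, with the gap widest in DJ_LP over DJ_CK. The share higher was also above that of the others in glk1glk2_LP over glk1glk2_CK (27.0% and 23.1%) and dgp1_LP over DJ_LP (25.7% and 20.2%). So it was in glk1glk2_LP over DJ_LP (32.3% and 22.8%) and ZH11 (2.15% and 1.54%), and it was below in the rest. The part of this overlap in the LHCB6 values was not tested.

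**Figure D5:**
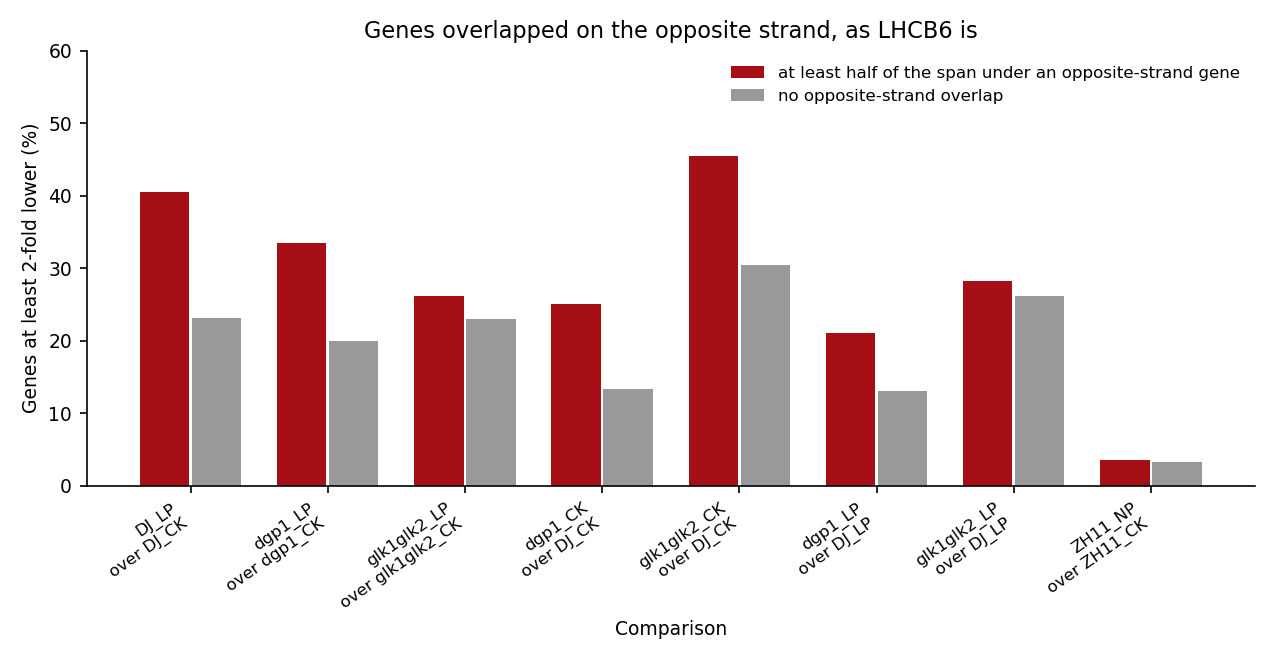
Percent of genes at least 2-fold lower in each comparison, for genes with at least 50% of their span under an opposite-strand gene (red), as LHCB6, and for genes with no such overlap (grey). In DJ_LP over DJ_CK the bars stand at 40.5% and 23.1%, and in ZH11_NP over ZH11_CK at 3.55% and 3.27%.

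Genes around the antenna were followed from lists chosen by name. Among nuclear photosystem II subunits, 8 of 14 measured were lower and 2 higher in DJ_LP than in DJ_CK, and PSBS1, whose PsbS protein triggers the antenna's dissipation of excess energy, stood at 155 FPKM in DJ_LP, against 2336 FPKM in DJ_CK. PsbO (Os01g0501800), a subunit of the oxygen-evolving complex, stood at 1394 FPKM in DJ_LP, against 2201 FPKM in DJ_CK, short of 2-fold. Of the subunits, 10 of 14 were higher and 2 lower in dgp1_LP than in DJ_LP, and 10 of 13 were lower and 0 higher in glk1glk2_CK than in DJ_CK. In dgp1_CK against DJ_CK, 5 of 13 were higher and 2 lower, and in ZH11 none of 14 passed. The other comparisons were mixed, with 4 of 13 higher and 3 lower in dgp1_LP against dgp1_CK, 2 of 12 higher and 0 lower in glk1glk2_LP against glk1glk2_CK, and 4 of 14 higher and 7 lower in glk1glk2_LP against DJ_LP. Over all genes, 23.1% were higher and 24.3% lower in DJ_LP against DJ_CK. The shares higher and lower were 20.9% and 13.4% in dgp1_LP against DJ_LP, and 27.4% and 31.3% in glk1glk2_CK against DJ_CK. They were 16.1% and 14.1% in dgp1_CK against DJ_CK, and 1.61% and 3.19% in ZH11. For the mixed comparisons they were 24.0% and 20.7% (dgp1_LP against dgp1_CK), 23.3% and 23.1% (glk1glk2_LP against glk1glk2_CK) and 23.5% and 26.0% (glk1glk2_LP against DJ_LP). The counts in dgp1_LP against dgp1_CK lay near these shares. Some calls in glk1glk2 rest on values under the floor of 3 fragments for a 1-kb gene. In glk1glk2_CK, where that floor is 30.7 FPKM, PsbP (Os01g0805300) stood at 4.59 FPKM and PsbY and PsbR at 0. OsPsbR2, called higher in glk1glk2_LP, stood at 14.4 FPKM there, under its floor of 27.3 FPKM, against 0 in glk1glk2_CK. Within the 6-library table, PsbR (Os07g0147500) ranged from 0 in both glk1glk2 libraries and dgp1_CK to 2656 FPKM in DJ_LP, against 11.8 FPKM in DJ_CK. It was the member with the highest ratio in DJ_LP over DJ_CK. Its DJ_CK value lay near the DJ_CK floor of 11.3 FPKM for a 1-kb gene.

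Of the factors that import and insert antenna proteins, both cpSRP54 genes were lower in DJ_LP than in DJ_CK, and cpFtsY and ALB3 were not. Over all genes, 24.3% were lower in that comparison. The DJ_CK floor of 3 fragments for a 1-kb gene is 11.3 FPKM, so the lower DJ_CK values given here rest on few fragments. The cpSRP54 gene YGL138 stood at 7.25 FPKM in DJ_LP, against 22.0 FPKM in DJ_CK, and ALB3, the thylakoid insertase, at 35.6 FPKM in DJ_LP, against 49.0 FPKM in DJ_CK. The glk1glk2_CK library is too shallow to compare cpFtsY and the cpSRP54 genes with DJ_CK, since its floor of 3 fragments for a 1-kb gene is 30.7 FPKM. ALB3, at 44.8 FPKM in glk1glk2_CK, lay above that floor, against 49.0 FPKM in DJ_CK. CAO1, the oxygenase that makes chlorophyll b, stood at 349 FPKM in dgp1_LP, against 153 FPKM in dgp1_CK, and at 57.6 FPKM in glk1glk2_CK, against 142 FPKM in DJ_CK. NYC1, a chlorophyll b reductase needed for antenna breakdown in rice, stood at 4.22 FPKM in dgp1_LP, against 63.6 FPKM in dgp1_CK, and at 134 FPKM in glk1glk2_LP, against 31.7 FPKM in DJ_LP. CAO1 and NYC1 thus moved in opposite directions in dgp1 on low phosphate. STN8, a thylakoid kinase of photosystem II proteins, was lower in DJ_LP at 5.87 FPKM, against 30.2 FPKM in DJ_CK, and STN7, the kinase of the trimeric antenna in Arabidopsis, stood at 6.64 FPKM in DJ_LP, against 14.2 FPKM in DJ_CK. CabE, matched in the deposited annotation to LHCB7 of Arabidopsis, stood at 46.6 FPKM in DJ_LP, against 127 FPKM in DJ_CK. In glk1glk2_LP and glk1glk2_CK it stood at 55.7 and 5.86 FPKM, the second of them under the glk1glk2_CK floor.

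Genes whose profiles lay closest to those of the members were taken by Pearson's r of log2(FPKM + 1) over the 6 libraries, among 2441 genes with a mean of at least 50 FPKM. Closest to the mean of the 5 major genes were Os01g0238500, annotated as an aminotransferase-like chloroplast protein (r = 0.994), OsFAD7, a chloroplast omega-3 fatty acid desaturase (0.983), phosphoglycerate kinase 3 (0.981), a chloroplast triosephosphate isomerase (0.981) and OsDAD1;3, annotated as a phospholipase A1 (0.975). Closest to the mean of LHCB4 and LHCB5 were a sedoheptulose-1,7-bisphosphatase of the Calvin cycle (0.999), PsaO of photosystem I (0.997), LYL1, a geranylgeranyl reductase of chlorophyll synthesis (0.994), Os07g0577600, a photosystem I antenna protein (0.994), and the B subunit of chloroplast glyceraldehyde-3-phosphate dehydrogenase (0.992). Closest to LHCB6 were Os01g0695300, annotated as a farnesyl pyrophosphate synthase (0.993), Os10g0205200, annotated as a Ufm1-conjugating enzyme (0.991), OsGL1-11 (0.988), a large-subunit ribosomal RNA (0.986) and Os01g0866600, annotated as a BolA-like protein (0.985). Most genes of the first 2 lists are annotated as chloroplast proteins. These are likenesses over 6 single libraries that share controls and unequal fragment numbers.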

How the data were processed

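Leaf RNA of 8 groups was sequenced, 1 library each, from kits that mark strand per the labels' protocols. The authors deposited 1 table for 6 libraries and 1 for the ZH11 pair. The header of the deposited values gives no unit. They were read as FPKM computed by the authors, because value times gene length was a whole multiple (within 0.01) of 1 step per library for 100% of values, and that step gave back the reads. In the file used here 1 line of the ZH11 table was empty. Aligner, counting tool and genome build are not given in the sources used here.

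Fragments were estimated as reads over the peak of the read-number histogram of genes (5 to 600 reads searched). Ratios were formed within a table only, as log2 of FPKM + 1, called at 2-fold with 5 FPKM in 1 library. Intervals (95%) are exact conditional binomial (Clopper-Pearson) over fragments; the floor is 3 fragments. The calls were checked on simulated data. The members, lists and rules were chosen with earlier results of these data known. Named genes were the 8 members, GLK1 and GLK2, genes of the pathway lists, and the 5 genes most like each of 3 profiles. The plan to name the highest and lowest of each pathway list was not kept throughout. Other list members were named as well, and some of the highest or lowest, such as PSBS2 and NOL, were not described. Marker genes at 0 are also named. The 7 leaf markers and PsbO were named after their values were seen. PPH1 and OsPIP2;3 were not matched by name and were not analysed here. Alternatives covered scaling, pseudocount, minimum level, summed copies, left-out members and a further read peak. Python 3.11.15 with numpy 2.4.6, pandas 2.3.3, scipy 1.17.1 and matplotlib 3.10.9 was used.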

Additional observations from a re-analysis of the deposited data

Results flagged for a closer look

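Several members moved in opposite directions in pairs of groups. These differences were not tested, since each rests on single libraries. The log2 response of CAB2R to low phosphate was 2.41 in dgp1 and -1.11 in DJ, a difference of 3.52. That of LHCB1.3 was 7.94 in dgp1 and -3.04 in DJ, a difference of 10.98. The log2 ratio of LHCB1.3 in dgp1 over DJ was 9.32 on low phosphate and -1.67 at control, which is the same difference of 10.98 from the same 4 libraries. Of these 4 libraries only dgp1_LP has no read peak. The part of the read peak in these differences of CAB2R and LHCB1.3 was not tested. In glk1glk2 over DJ, LHCB1.3 had 1.07 on low phosphate and -1.30 at control, a difference of 2.37, on 1.79 and 2.61 fragments in the mutant libraries, so both ratios lie within counting error. LHCB6 in glk1glk2 over DJ had 4.20 on low phosphate and -4.31 at control, a difference of 8.51, on 6.78 and 3.43 fragments in the mutant libraries.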

How the results depend on the processing

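No direction called reversed under the alternatives run, and pseudocounts of 0.1 and 5 and minimum levels of 10 FPKM or none left all counts, medians and minor minus major differences about as reported. Scaling to own read totals shifts log2 ratios before the pseudocount (and members of low level by a little more or less after it) by 0.40 (DJ response), 0.12 (dgp1 response), 0.04 (glk1glk2 response), -0.27 and 0.41 (dgp1 and glk1glk2 over DJ at control), -0.55 and 0.05 (dgp1 and glk1glk2 over DJ on low phosphate) and 0.07 (ZH11). The antenna median then was -1.06 (DJ response), 0.74 (dgp1 response), 0.58 (dgp1 over DJ, control), -1.36 (glk1glk2 over DJ, control), 2.34 (dgp1 over DJ, low phosphate) and -0.36 (ZH11), with 0 members called in ZH11. Median-of-ratios scaling gave 0 called and a median of -0.41 in ZH11. With CAB1R and CAB2R summed the median was -1.80 (DJ response), 0.66 (dgp1 response), -1.30 (glk1glk2 over DJ, control), 2.57 and -0.30 (dgp1 and glk1glk2 over DJ, low phosphate) and -0.41 (ZH11), and minor minus major was -1.60 (DJ response), -0.03 (glk1glk2 over DJ, low phosphate) and -0.00 (ZH11). Without LHCB6, minor minus major was -1.11 (DJ response), -0.65 (dgp1 response), 0.03 (glk1glk2 response) and 0.07 (ZH11). It was then -0.02 and -1.30 (dgp1 and glk1glk2 over DJ, control) and 0.70 and 0.31 (dgp1 and glk1glk2 over DJ, low phosphate). Without LHCB1.3 and LHCB6, a choice made after seeing the data, 3 members were called in DJ, 1 in dgp1 and 0 in ZH11. With the further read peak taken as 1 fragment, 62 of 64 intervals kept their side of 1, and LHCB2 in the glk1glk2 response (0.692 to 0.963) and LHCB5 in glk1glk2 over DJ on low phosphate (0.686 to 0.956) no longer included it. No paired analysis was possible because each group is 1 library. Depth limits LHCB1.3 and LHCB6 in glk1glk2, where a floor of 3 fragments for a 1-kb gene is 27.3 and 30.7 FPKM in the LP and CK libraries.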
